A study of Mus musculus with 5 samples.

Results

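Ligands of the epidermal growth factor (EGF) family, the ErbB receptors they bind and the receptor inhibitor Errfi1 were followed in the mouse hippocampus after seizures. The 10 genes were taken by symbol out of 55385 genes with deposited counts. They comprised the ligand genes Hbegf, Areg, Ereg, Tgfa and Nrg1, the receptor genes Egfr, Erbb2, Erbb3 and Erbb4, and Errfi1. A count was recorded for 9 of the 10 genes, and the same 9 passed the filter on low counts that left 19768 genes for testing. Areg passed with 48 counts at 1 h and 34 counts in a library of the 4 h time point, and had at most 3 counts elsewhere.

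ErbB receptors are receptor tyrosine kinases that pair after ligand binding and signal through the RAS-ERK and PI3K-AKT pathways. Their ligands are made as membrane-anchored precursors, many of which are released by metalloproteases of the ADAM family. In the brain, neuregulins and ErbB4 act on interneurons and synapses, EGF receptor ligands act on glia and progenitor cells, and Errfi1 (also called Mig6) is an inducible protein that binds the kinase domain of active ErbB receptors and inhibits it.

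The study asked how strong neuronal activity alters gene expression and exon usage. Male C57/bl6 mice of 3 months received kainic acid, a glutamate receptor agonist that provokes seizures, at 20 mg/kg by intraperitoneal injection. Hippocampi were collected after the onset of seizures, at 1, 4 and 8 h. By the paper's methods, inclusion required stage 5 of a modified Racine scale, a score of seizure behavior. Total RNA was sequenced in 5 libraries: 1 of untreated control hippocampus from the same strain, sex and age, 1 at 1 h, 2 at 4 h (called replicate 1 and replicate 2) and 1 at 8 h. The control was labelled untreated, at 0 h, and no vehicle library was analysed here, so effects of injection and of seizure cannot be told apart. The labels do not state whether a library came from a single animal or whether the replicates at 4 h were separate animals. The control, 1 h and 8 h groups had no replicate. The spread behind every p-value and SE therefore came from the 4 h libraries, with information shared over genes. It describes these samples only, and the spread within the other groups was not measured.

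Reads counted on genes numbered between 16612225 and 19109204 per library. Levels are given as normalized CPM, the counts of a gene scaled to a common library size corrected with TMM factors. Where 5 values are listed, their order is control, 1 h, replicate 1 and replicate 2 of 4 h, and 8 h. Intervals in brackets are exact 95% Poisson intervals for levels and exact 95% binomial intervals for ratios, and both cover counting error only. The counts join all exons and transcripts of a gene. In bulk tissue, fewer cells of a type and less RNA per cell cannot be told apart.

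The 4 h libraries differed at least 2-fold from each other in 1454 of the 16535 genes with at least 20 counts in either of them (8.79%), and the SD of their log2 ratio was 0.65. The summed level of 8 activity reference genes was 232, 5570.2, 3856, 1152 and 226 normalized CPM in the 5 libraries. The summed level of 5 choroid plexus markers was 3896, 1642, 20.8, 4149 and 3000.1 normalized CPM. Ttr, which encodes the thyroid hormone carrier transthyretin and was the most abundant of them, had 3747, 1573, 16.3, 3971 and 2884 normalized CPM. None of the 5 markers was at 0 in all libraries, and 4 of them (Ttr, Folr1, Otx2 and Clic6) were at least 2-fold lower than the control at 1 h. Replicate 1 stood apart by its near lack of these transcripts. Reads on no gene made up 24.7%, 29.0%, 33.1%, 25.3% and 30.9% of all reads in the 5 libraries, with the highest share also in replicate 1. The part of either in the results was not tested. Levels of the 10 genes at 4 h are therefore given for both libraries, while fold changes from the test join them.

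Errfi1 and Areg were higher at 1 h, Errfi1 and Hbegf at 4 h and Hbegf at 8 h, while the receptor genes stayed within 2-fold of the control in every library. A gene counted as different when it was at least 2-fold from the control, in both libraries at 4 h, with at least 20 counts in a library of the comparison. By this measure 2 of 9 members were higher at 1 h, beside 3.56% of 16423 genes, and 0 of 9 were lower, beside 1.85%. Areg, with 3 counts in the control, could be counted only as higher, and with at least 10 counts required in every library 1 member (Errfi1) was left among 466 higher genes at 1 h. At 4 h 2 of 9 members were higher, beside 4.04% of 16974 genes, and 0 of 9 were lower, beside 1.13%. The measure asks for both 4 h libraries, and with either left out more genes were higher and more were lower. Nrg1 and Areg joined the higher members without replicate 2. At 8 h 1 of 8 members was higher, beside 4.17% of 16612 genes, and 0 of 8 were lower, beside 2.29%. With library size alone in place of TMM factors, 565 genes were higher and 294 lower at 4 h, against 686 higher and 191 lower, and Hbegf was no longer among the former. That scaling moved the median log2 fold change of all genes at 4 h from 0.0098 to -0.11.

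No member passed the test over all genes with TMM factors and the filter on low counts. The quasi-likelihood test of edgeR with Benjamini-Hochberg adjustment called 0 of 9 members at 1 h, where it called 0% of 19768 genes, 0 of 9 at 4 h, where it called 0.00506% (1 gene), and 0 of 9 at 8 h, where it called 0%. At an unadjusted p under 0.05 it had 478 genes at 1 h, 2291 at 4 h and 892 at 8 h, against 988 expected by chance among 19768 tests. Among these were Errfi1 at 1 h, Errfi1 and Hbegf at 4 h, and 0 members at 8 h. DESeq2 called 0 of the 8 members to which it gave an adjusted p, which left out Areg, beside 0.323% of the genes with an adjusted p at 1 h (49 genes), 1.62% at 4 h (233 genes) and 0.206% at 8 h (32 genes). limma-voom called 0 members and 0% of genes at each time point. With library size alone edgeR called Errfi1 among 57 of 19768 genes at 1 h and among 237 at 4 h. With no filter it called Errfi1 and Areg among 285 of 32732 genes at 1 h, and Errfi1 and Hbegf among 1300 at 4 h. The replicate pair at 4 h gave the only residual degree of freedom of these tests.

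**Figure D1:**
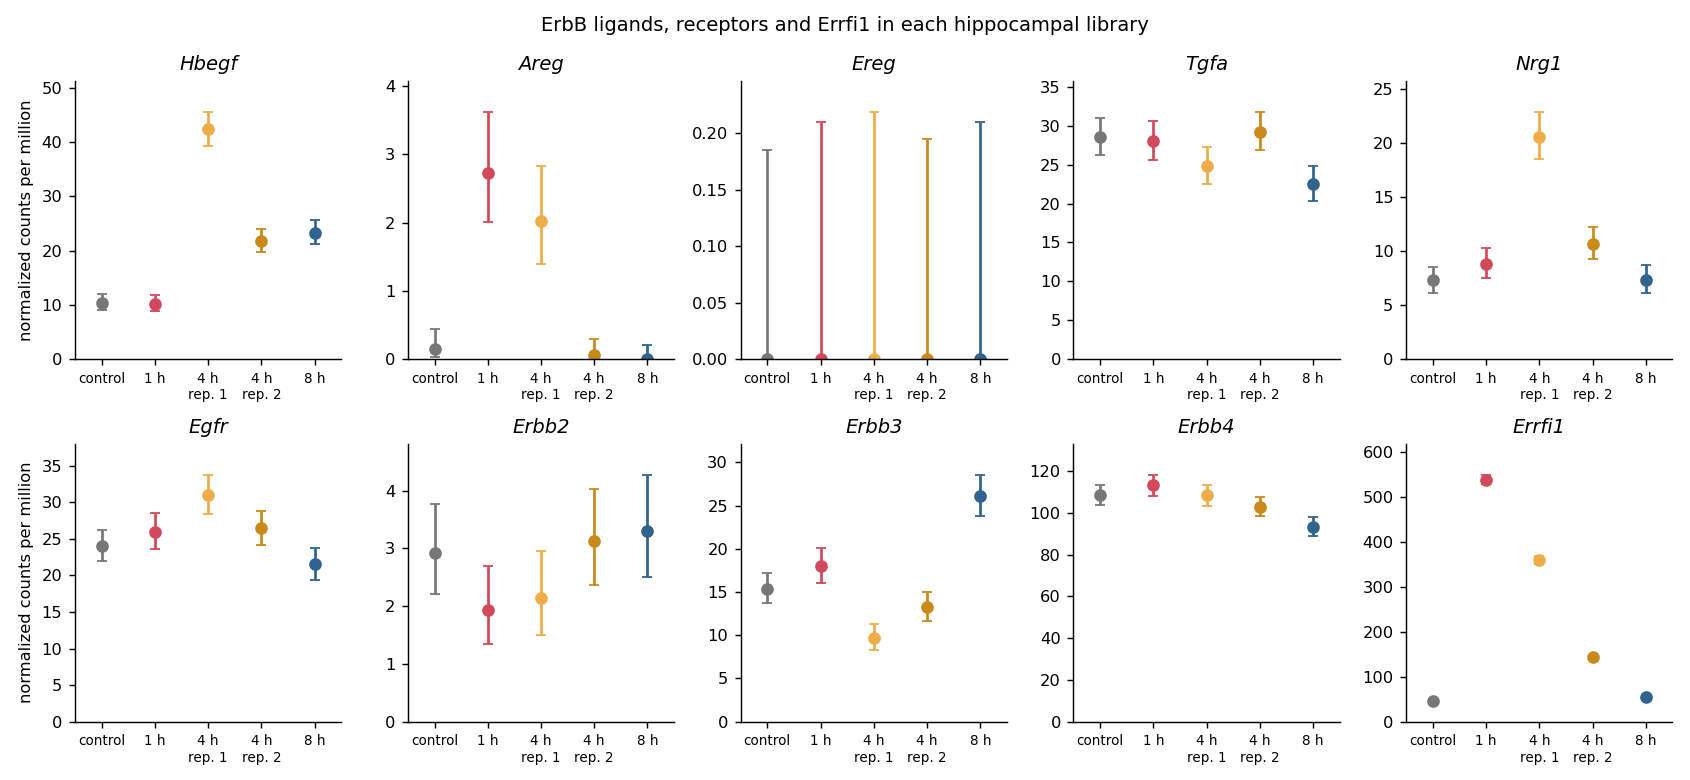
Normalized CPM of each gene in each of the 5 libraries, on a linear axis that starts at 0 and differs between panels, with exact 95% Poisson intervals as bars. Errfi1 goes from 45.4 in the control to 539.7 at 1 h, while Ereg has no count in any library.

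Errfi1 (ENSMUSG00000028967.10), the feedback inhibitor of the family, had 904, 9486, 6082, 2711 and 968 counts in the 5 libraries. In normalized CPM this was 45.4, 539.7, 361, 143 and 55.2. All 3 libraries of 1 h and 4 h were above the control and the 8 h library, and the intervals of the 5 libraries did not overlap, with 42.5 to 48.5 in the control and 51.8 to 58.8 at 8 h. Errfi1 was 11.9-fold above the control at 1 h (11.1 to 12.7). It was 7.95-fold (7.41 to 8.54) higher in replicate 1 of 4 h, 3.16-fold (2.93 to 3.41) in replicate 2 and 1.22-fold (1.11 to 1.33) at 8 h. Replicate 1 was 2.52-fold above replicate 2, a gap larger than that of 95.1% of all genes compared. The edgeR quasi-likelihood test, adjusted after Benjamini-Hochberg, gave a log2 fold change of 3.57 at 1 h (SE 0.65, adjusted p = 1; 1 of 1 library higher) and of 2.47 at 4 h (SE 0.58, adjusted p = 0.303; 2 of 2 higher). Over 7 other settings the adjusted p spanned 1.42e-44 to 1 at 1 h and 2.31e-26 to 0.405 at 4 h. It was below 0.05 at both times with library size alone and with no filter on low counts, the settings that called the most genes at 4 h (237 and 1300).

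From 1 h to 8 h the Errfi1 level was 9.77-fold lower (9.15 to 10.5). The 4 h libraries lay between these times, 1.49-fold and 3.76-fold below the 1 h library. Compared directly in the edgeR quasi-likelihood test (Benjamini-Hochberg), 8 h differed from 4 h by a log2 value of -2.19 (adjusted p = 0.476) and from 1 h by -3.29 (adjusted p = 0.609).

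Areg (ENSMUSG00000029378.5) encodes amphiregulin, a ligand of the EGF receptor. It had 3, 48, 34, 1 and 0 counts in the 5 libraries. In normalized CPM this was 0.151, 2.73, 2.02, 0.0529 and 0, where the floor of 3 counts is worth between 0.151 and 0.178. Only the 1 h library and replicate 1 at 4 h were above the floor, and the 4 h libraries lay on either side of it. The ratio to the control was 18.1 (5.84 to 90.9) at 1 h and 13.4 (4.21 to 68.2) in replicate 1. In replicate 2 and at 8 h the counts, like that of the control, were at or under the floor, so no ratio is given. The gap between the 4 h libraries was larger than that of 99.7% of all genes compared, and Areg did not meet the 2-fold measure at 4 h. The 1 h log2 fold change in the edgeR quasi-likelihood test (Benjamini-Hochberg) was 3.44 (SE 2.01, adjusted p = 1), and 1 of 1 library was higher. Over 5 other settings the adjusted p spanned 0.000860 to 1, and was below 0.05 only with no filter, which called 285 genes.

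Ereg (ENSMUSG00000029377.5), which encodes the related ligand epiregulin, had 0 counts in all 5 libraries. The exact upper limits of its level lay between 0.185 and 0.219 normalized CPM. Ereg was not detectable at this depth in a region where Areg was counted: in GENCODE M21 (GRCm38) Ereg lies at chr5:91074622-91093646 and Areg at chr5:91139599-91148432, on the same strand, with 45952 bases between them. Of the exonic length of Ereg, 3.42% overlaps exons of the other strand.

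Errfi1 and Areg were the 2 members at least 2-fold above the control at 1 h, and their promoters are shown for that reason. Promoter sequences of RefSeq (GRCm38.p6) were matched by symbol for 6 of the 10 genes (Errfi1, Areg, Tgfa, Egfr, Erbb2 and Erbb4), in 7 windows of the 250 bases before an annotated start. Each window was searched on both strands for 4 motifs, and a match at the same bases of both strands was counted once. The motifs were the CArG box of serum response factor, the cyclic AMP response element TGACGTCA, the AP-1 site TGANTCA and the EGR site GCGNGGGCG. TGACGTCA was found in the window of Areg and in 1 of the 2 windows of Errfi1, and no other match was found in the 7 windows. Of all 32851 promoter windows of this length, 1.55% hold TGACGTCA, 1.47% a CArG box, 6.75% TGANTCA and 4.70% GCGNGGGCG. A match describes the letters in the window and is not a measurement of binding.
Errfi1, chr4:150854820-150855069, plus strand: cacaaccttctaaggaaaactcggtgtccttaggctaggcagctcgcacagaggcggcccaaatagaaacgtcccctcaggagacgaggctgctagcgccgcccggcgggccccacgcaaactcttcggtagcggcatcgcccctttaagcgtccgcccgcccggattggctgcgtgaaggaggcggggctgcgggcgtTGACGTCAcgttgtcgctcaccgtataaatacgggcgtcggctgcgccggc
Areg, chr5:91139349-91139598, plus strand: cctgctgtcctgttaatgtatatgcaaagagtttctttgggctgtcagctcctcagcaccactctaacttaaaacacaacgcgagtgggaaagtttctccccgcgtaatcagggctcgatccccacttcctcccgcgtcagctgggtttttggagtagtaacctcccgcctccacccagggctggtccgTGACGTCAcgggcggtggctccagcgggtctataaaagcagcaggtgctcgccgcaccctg
Capitals mark TGACGTCA, and both runs end at the base before the start. The motif lies 51 to 44 bases before the start in Errfi1 and 61 to 54 bases before it in Areg. The Errfi1 window lies in an intron of the longer Errfi1 transcript (gene at chr4:150853919-150868892, plus strand), and 124 of its 250 bases lie in an annotated exon of the other strand. The Areg window lies in no annotated gene. The second Errfi1 window, chr4:150853546-150853795, before the upstream start, held none of the 4 motifs. The deposited counts do not separate the transcripts from these starts.

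Tgfa (ENSMUSG00000029999.14) encodes transforming growth factor alpha, another ligand of the EGF receptor. Its level was 28.6, 28.0, 24.8, 29.2 and 22.5 normalized CPM. The 8 h library was the lowest, at 0.786 of the control (0.690 to 0.895), and the 4 h libraries lay on either side of the control. At 8 h the log2 fold change of Tgfa was -0.35 (SE 0.27, adjusted p = 1.00, edgeR quasi-likelihood test, Benjamini-Hochberg).

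Hbegf (ENSMUSG00000024486.6) encodes heparin-binding EGF-like growth factor, a ligand of the EGF receptor and ErbB4. It had 207, 180, 713, 411 and 409 counts. In normalized CPM this was 10.4, 10.2, 42.3, 21.7 and 23.3. The 1 h library lay within the interval of the control (9.03 to 11.9), and the 3 later libraries were all above both. At 1 h it was 0.985 of the control (0.802 to 1.21). It was 4.07-fold (3.48 to 4.78) above the control in replicate 1 of 4 h, 2.09-fold (1.76 to 2.48) in replicate 2 and 2.24-fold (1.89 to 2.66) at 8 h. Replicate 2 at 4 h and the 8 h library differed by less than counting error, with a ratio of 1.07 (0.934 to 1.23). Replicate 1 was 1.95-fold above replicate 2, a gap larger than that of 90.6% of all genes compared.

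In the edgeR quasi-likelihood test, adjusted after Benjamini-Hochberg, the log2 fold change of Hbegf at 4 h was 1.61 (SE 0.46, adjusted p = 0.348), with 2 of 2 libraries higher. At 8 h it was 1.16 (SE 0.50, adjusted p = 1.00), with 1 of 1 library higher, and at 1 h -0.022 (SE 0.50, adjusted p = 1). The adjusted p of Hbegf at 4 h spanned 2.13e-05 to 0.407 over 7 other settings and was below 0.05 only with no filter on low counts, which called 1300 genes. Between 4 h and 1 h the log2 difference was 1.63 (adjusted p = 0.534, same edgeR test and Benjamini-Hochberg adjustment). Hbegf and Errfi1 thus differed in their order over time: at 1 h Errfi1 had its highest level and Hbegf a level within the interval of its control, and at 8 h Hbegf was 2.24-fold and Errfi1 1.22-fold above the control. The difference between the genes was not tested.

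Nrg1 (ENSMUSG00000062991.9) encodes neuregulin 1, a ligand of ErbB3 and ErbB4. It had 145, 155, 347, 202 and 129 counts, or 7.29, 8.82, 20.6, 10.7 and 7.36 normalized CPM. Both 4 h libraries were above the other 3. The ratio to the control was 2.83 (2.32 to 3.46) in replicate 1 and 1.47 (1.18 to 1.83) in replicate 2, so the 2-fold measure was met in replicate 1 alone. Replicate 2 and the 1 h library did not differ beyond counting error, with a ratio of 1.21 whose interval included 1. The log2 fold change of Nrg1 at 4 h was 1.09 (SE 0.46, adjusted p = 0.444, edgeR quasi-likelihood test, Benjamini-Hochberg), with 2 of 2 libraries higher. The annotation lists 18 transcripts of Nrg1, which the counts join, and 4.66% of its exonic length overlaps exons of the other strand. The strand setting of the counting is not given in the sources used here, so reads of the overlapping genes cannot be told apart.

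**Figure D2:**
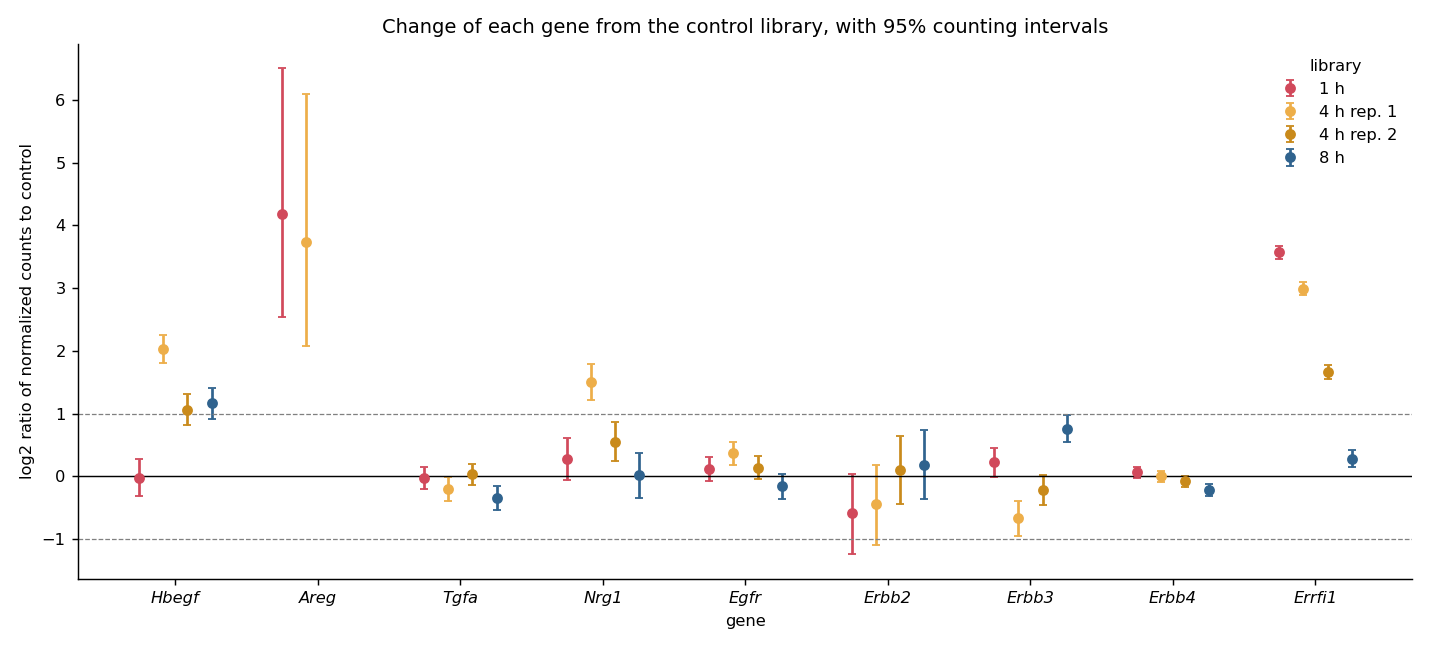
Log2 ratio of normalized counts to the control library for 9 genes (Ereg had no counts) in the 4 libraries after kainic acid, with exact 95% binomial intervals as bars, dashed lines at a 2-fold difference, and Areg drawn only where it had more than 3 counts. Errfi1 is above the upper dashed line at 1 h and in both libraries at 4 h, and Hbegf at 4 h and 8 h.

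The receptor genes, like Tgfa, were within 2-fold of the control in every library. Erbb4 (ENSMUSG00000062209.15), a neuregulin receptor that in the forebrain is best known in interneurons, had 108, 113, 108, 103 and 93.4 normalized CPM. The 8 h library was the lowest, at 0.861 of the control (0.807 to 0.918), and the other 3 ratios had intervals that included 1. Its log2 fold change in that library was -0.22 (SE 0.19, adjusted p = 1.00, edgeR quasi-likelihood test, Benjamini-Hochberg).

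Egfr (ENSMUSG00000020122.16), the receptor of Areg, Ereg, Tgfa and Hbegf, had 24.0, 26.0, 31.0, 26.4 and 21.5 normalized CPM. Replicate 1 at 4 h was the highest, at 1.29 of the control (1.14 to 1.46), and the intervals of the other 3 ratios included 1. Over both 4 h libraries the log2 fold change was 0.26 (SE 0.23, adjusted p = 0.696, edgeR quasi-likelihood test, Benjamini-Hochberg).

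Erbb2 (ENSMUSG00000062312.5), the receptor without a known ligand of its own that pairs with the others, had between 34 and 59 counts per library. Its level was 2.91, 1.93, 2.14, 3.12 and 3.31 normalized CPM. The intervals of all 4 ratios to the control included 1. They reached down to 0.421 at 1 h and up to 1.66 at 8 h, so differences of that size were not excluded by the counts.

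Erbb3 (ENSMUSG00000018166.8), a neuregulin receptor with a weak kinase that signals in pairs, had 306, 316, 163, 250 and 457 counts. In normalized CPM this was 15.4, 18.0, 9.68, 13.2 and 26.1. The 4 h libraries were the lowest and the 8 h library the highest of the 5. Erbb3 was 1.17 of the control (0.996 to 1.37) at 1 h. It was 0.630 of it (0.517 to 0.764) in replicate 1 of 4 h, 0.860 (0.725 to 1.02) in replicate 2 and 1.70 (1.46 to 1.97) at 8 h. The 8 h library was 2.69-fold (2.25 to 3.24) above replicate 1 and 1.97-fold (1.69 to 2.31) above replicate 2. The edgeR quasi-likelihood test (Benjamini-Hochberg) gave a log2 fold change of -0.42 at 4 h (SE 0.29, adjusted p = 0.609; 2 of 2 libraries lower) and of 0.76 at 8 h (SE 0.34, adjusted p = 1.00; 1 of 1 higher). The summed level of 7 oligodendrocyte markers, cells in which Erbb3 is known, was 1.25 of the control at 1 h, 1.18 in replicate 1, 1.52 in replicate 2 and 0.989 at 8 h.

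Per length, Errfi1 was the most abundant of the 10 genes in the control, with 12.7 normalized CPM per kilobase of annotated exons (11.9 to 13.5). Erbb4 followed with 8.78 (8.41 to 9.16), Tgfa with 4.41 (4.05 to 4.78), Erbb3 with 2.56 (2.28 to 2.86), Hbegf with 2.15 (1.87 to 2.47) and Egfr with 2.12 (1.93 to 2.32). The intervals of Erbb3, Hbegf and Egfr overlapped. Nrg1 with 0.704 (0.594 to 0.828) and Erbb2 with 0.559 (0.425 to 0.723) also overlapped each other, and Areg with 0.124 and Ereg with 0 were at or under the floor. At 1 h Errfi1 reached 151 normalized CPM per kilobase, beside 9.16 for Erbb4. These levels use the length of all annotated exons of a gene, which can exceed that of the transcripts present.

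The activity reference genes are transcripts known to be induced by synaptic activity, and are given beside Errfi1 without a test of likeness. All 8 were at least 2-fold above the control at 1 h, beside 3.56% of the genes compared. At 4 h 4 of 8 were higher (Fos, Fosb, Arc and Egr4), beside 4.04%. At 8 h 1 of 8 was higher (Fosb), beside 4.17%, and 1 of 8 at least 2-fold lower (Egr2), beside 2.29%. Over the 1, 4 and 8 h comparisons the median of their log2 fold changes was 5.56, 3.00 and -0.27, and that of all genes -0.0050, 0.0098 and 0.0091. The 4 h value joins libraries that differed, with a median ratio to the control of 12.9 in replicate 1 and 2.32 in replicate 2. Fos, a subunit of AP-1, had 10.8, 999.2, 519, 70.4 and 17.2 normalized CPM in the 5 libraries. Npas4, a transcription factor induced by calcium entry, had 3.92, 694, 130, 4.92 and 5.13. Both had their highest level at 1 h, as Errfi1 did.

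Arc, a postsynaptic protein, had 148, 2022, 2593, 928 and 152 normalized CPM, and so was highest in replicate 1 at 4 h. Among the transcription factors, the ratio to the control at 1 h was 106 for Fosb, 21.2 for Junb, 17.9 for Nr4a1, 87.9 for Egr2 and 27.1 for Egr4. In replicate 2 at 4 h these were 17.1, 1.44, 1.02, 1.62 and 3.02, against 3.16 for Errfi1. Replicate 2 was lower than replicate 1 in all 8 genes. The edgeR quasi-likelihood test (Benjamini-Hochberg) called 0 of 8, with a smallest adjusted p = 0.259, at 4 h, for Fosb (log2 fold change 5.36, 2 of 2 libraries higher) and Arc (3.58, 2 of 2 higher).

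**Figure D3:**
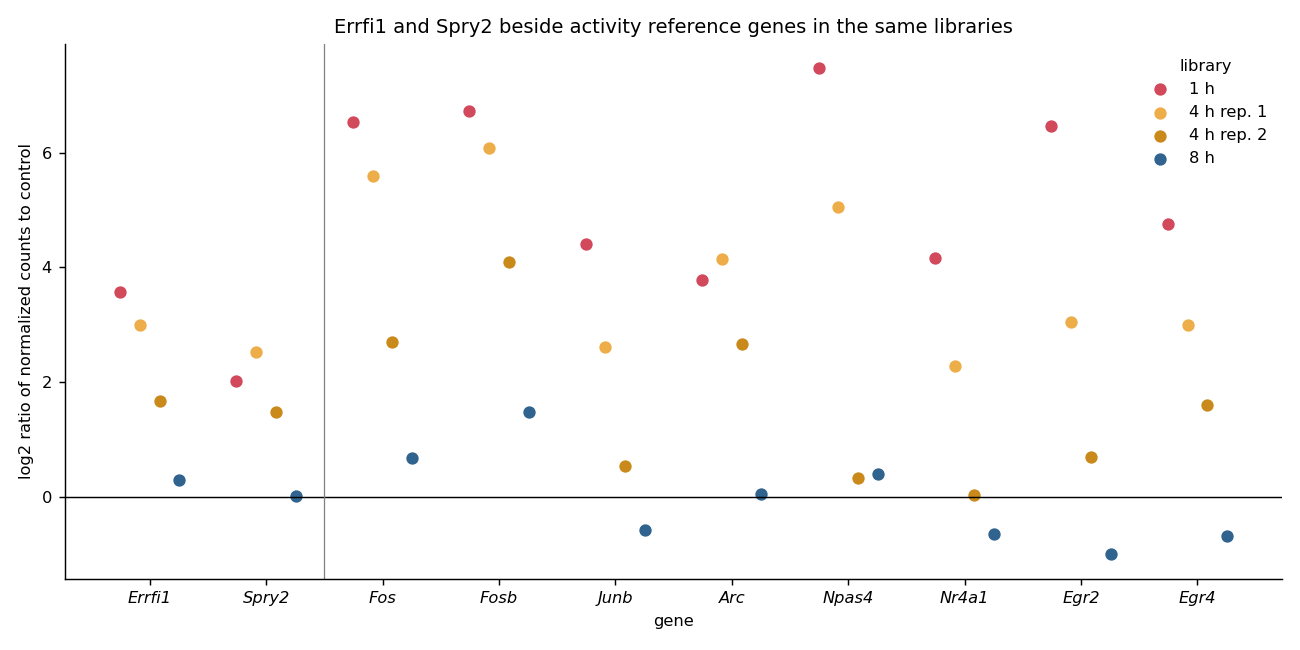
Log2 ratio of normalized counts to the control for Errfi1, Spry2 and 8 activity reference genes, with 1 point for each library after kainic acid. Errfi1 at 1 h (3.57) is below the 8 reference genes, and in replicate 2 at 4 h (1.66) it is above Junb, Npas4, Nr4a1, Egr2 and Egr4.

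The 5 genes with profiles nearest to Errfi1 were sought among 11882 genes with a mean of at least 5 normalized CPM, by Euclidean distance over the 4 log2 ratios to the control, which all share the control library. They were Sik1 (distance 0.633), Trib1 (0.672), Gm17024 (0.688), Tiparp (0.730) and Amigo3 (0.812). Sik1, a salt-inducible kinase, was 7.96-fold above the control at 1 h, 8.00-fold in replicate 1, 3.54-fold in replicate 2 and 1.06-fold at 8 h. Tiparp, an ADP-ribosyltransferase, was 12.4-fold above it at 1 h, 6.59-fold and 2.07-fold at 4 h, and at 0.992 of it at 8 h.

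The 5 genes nearest to Hbegf among the same 11882 genes were Sbno2 (distance 0.294), Rbpj (0.316), Gfpt2 (0.370), Tnfrsf1a (0.449) and Plod2 (0.452). Rbpj, the DNA-binding partner of Notch, had ratios to the control of 1.03 at 1 h, 3.46 in replicate 1, 1.99 in replicate 2 and 1.98 at 8 h. Tnfrsf1a, a receptor of tumor necrosis factor, had ratios of 1.29, 3.96, 2.40 and 2.13 in the same order. The genes of both sets were selected on these ratios, so their likeness to Errfi1 and Hbegf is no separate observation.

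Other genes of the pathway were described by lists. Of 6 other ErbB ligand genes (Egf, Btc, Epgn, Nrg2, Nrg3 and Nrg4), 5 were tested and 0 were called by edgeR's quasi-likelihood test. The 2-fold measure could be applied to 3 of them at 1 h and 4 h and to 4 at 8 h, and 0 met it. Btc, at 0.443 of the control in replicate 1 and 0.592 in replicate 2, had too few counts for the measure at 4 h. The median of their log2 fold changes was 0.14, -0.43 and 0.58 over the 3 times for the 5 tested genes. Nrg3, the most abundant of the list, was at 1.24 of the control in replicate 1 and 1.07 in replicate 2, and the summed level of the list at 1.15 and 1.03. Among 8 sheddases and their regulators, 0 were at least 2-fold higher at 1 h and 4 h, beside 3.56% and 4.04% of genes compared. At 8 h 1 of 8 was higher, beside 4.17%. This was Rhbdf1, an inactive rhomboid protein that regulates the sheddase ADAM17, with 10.5, 9.22, 18.1, 15.2 and 26.4 normalized CPM. Rhbdf1 had an 8 h log2 fold change of 1.33 (SE 0.30, adjusted p = 0.882, edgeR quasi-likelihood test, Benjamini-Hochberg), with 1 of 1 library higher. Adam17 itself had ratios between 0.959 and 1.18.

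Among 16 other negative regulators of ErbB signalling, 15 were tested and 0 were called. At 1 h 1 of 15 was at least 2-fold higher, beside 3.56% of the genes compared. At 4 h 2 of 15 were higher, beside 4.04%, and at 8 h 0 of 15, beside 4.17%. Spry2, a Sprouty protein that restrains RAS-ERK signalling, had 37.0, 149, 214, 103 and 37.2 normalized CPM. Spred2, a related inhibitor of RAF activation, had 33.8, 43.1, 112, 76.7 and 43.8. Both were highest in replicate 1 of 4 h, and at 1 h Spry2 was 4.04-fold and Spred2 1.28-fold above the control. At 4 h the edgeR quasi-likelihood test (Benjamini-Hochberg) gave log2 fold changes of 2.09 for Spry2 (SE 0.47, adjusted p = 0.288) and 1.48 for Spred2 (SE 0.29, adjusted p = 0.259), each with 2 of 2 libraries higher. Over the 3 times the list median of log2 fold changes was 0.21, 0.54 and -0.042, and the median ratio at 4 h was 1.53 in replicate 1 and 1.35 in replicate 2.

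Of 27 adaptors and effectors of the RAS-ERK and PI3K pathways, 27 were tested, 0 were called and 0 were at least 2-fold from the control at any time. Of the genes compared, 3.56%, 4.04% and 4.17% were higher and 1.85%, 1.13% and 2.29% lower at 1, 4 and 8 h. The ratios of the 27 genes to the control over all libraries lay between 0.568, for Mapk3 at 8 h, and 1.83, for Grb2 in replicate 2 of 4 h. As a log2 fold change their median was 0.016, -0.15 and 0.0038, and as a ratio at 4 h 0.917 in replicate 1 and 0.909 in replicate 2.

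**Figure D4:**
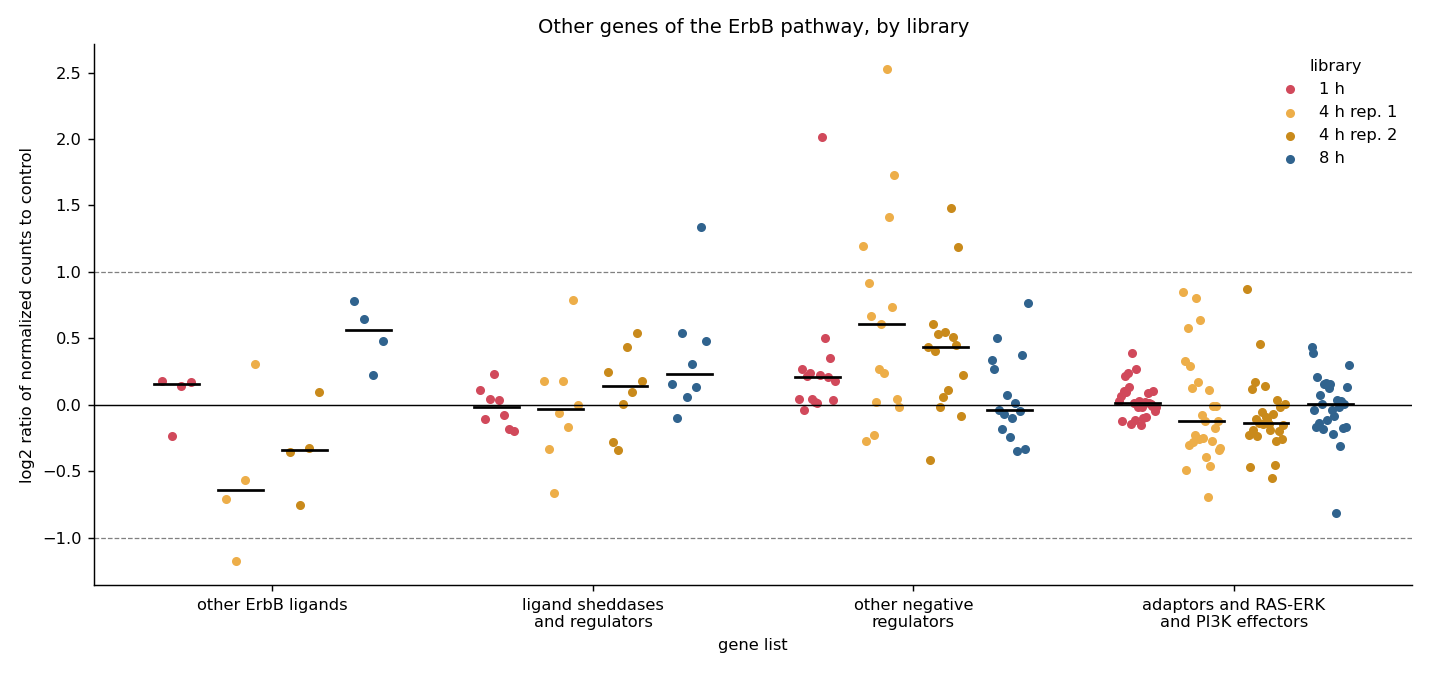
Log2 ratio of normalized counts to the control for the genes of 4 pathway lists with at least 20 counts in a library, with 1 point for each gene and library, medians as black lines and dashed lines at a 2-fold difference. The highest points of the negative regulators are Spry2, at 4.04-fold at 1 h and 5.78-fold in replicate 1 at 4 h.

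Markers of hippocampal cell types were present in all libraries. The summed level of the excitatory neuron markers was between 0.850 and 0.990 of the control, and Camk2a, the most abundant of the 5, had between 1218 and 1436 normalized CPM. Among these markers Neurod6 was at least 2-fold lower at 4 h, at 60.9 and 67.1 normalized CPM against 144 in the control, while Prox1 was at 172 and 119.7 against 60.0. The interneuron sum was 1.11 of the control at 1 h, 1.65 in replicate 1, 1.36 in replicate 2 and 1.01 at 8 h, and Gad1, the most abundant of the 6, had 256, 317, 515, 379 and 274 normalized CPM in the 5 libraries. The other markers did not all follow it: in replicate 1 Gad2 was at 1.47 of the control and Slc32a1 at 0.892, and the list median was 1.27 there and 1.12 in replicate 2. Erbb4, known in interneurons, was at 1.04, 0.999, 0.948 and 0.861 of the control in the 4 libraries after kainic acid.

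Among glia, the astrocyte sum was 1.05 of the control at 1 h, 1.26 in replicate 1, 1.15 in replicate 2 and 1.10 at 8 h, with Slc1a2 as the most abundant gene. Gfap, an intermediate filament of astrocytes, was 2.70-fold and 2.31-fold above the control at 4 h and 2.66-fold at 8 h, at the times when Hbegf was above it. Gja1 of the same list was at 0.998 of the control in replicate 1, 1.04 in replicate 2 and 0.507 at 8 h, and the median ratio of the list at 8 h was 1.03. The oligodendrocyte sum, led by Mbp, lay between 0.989 and 1.52 of the control, and the precursor sum, led by Pdgfra, between 0.882 and 1.10. The microglia sum, led by Csf1r, lay between 0.808 and 1.01. Within that list P2ry12 was at 0.436 of the control in replicate 1, 0.558 in replicate 2 and 0.652 at 8 h. Aif1 was at 1.62 at 1 h, and the list median was 0.791 in replicate 1 and 0.956 in replicate 2. The endothelial sum, led by Flt1, was 1.60 of the control in replicate 1 at 4 h and between 0.949 and 1.18 in the other libraries. In replicate 1 its genes differed in direction, from 0.436 for Tie1 to 3.40 for Cdh5. The leptomeningeal sum, led by Dcn, lay between 0.592 and 0.883, and Dcn was at least 2-fold lower at 1 h, at 0.463 of the control. Col1a1 of this list was at 0.712 of the control at 1 h, 1.17 in replicate 1, 1.26 in replicate 2 and 1.52 at 8 h. The list median was 0.712, 0.818, 0.845 and 0.921 in the same order. The part of any of these in the results of the 10 genes was not tested.

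**Figure D5:**
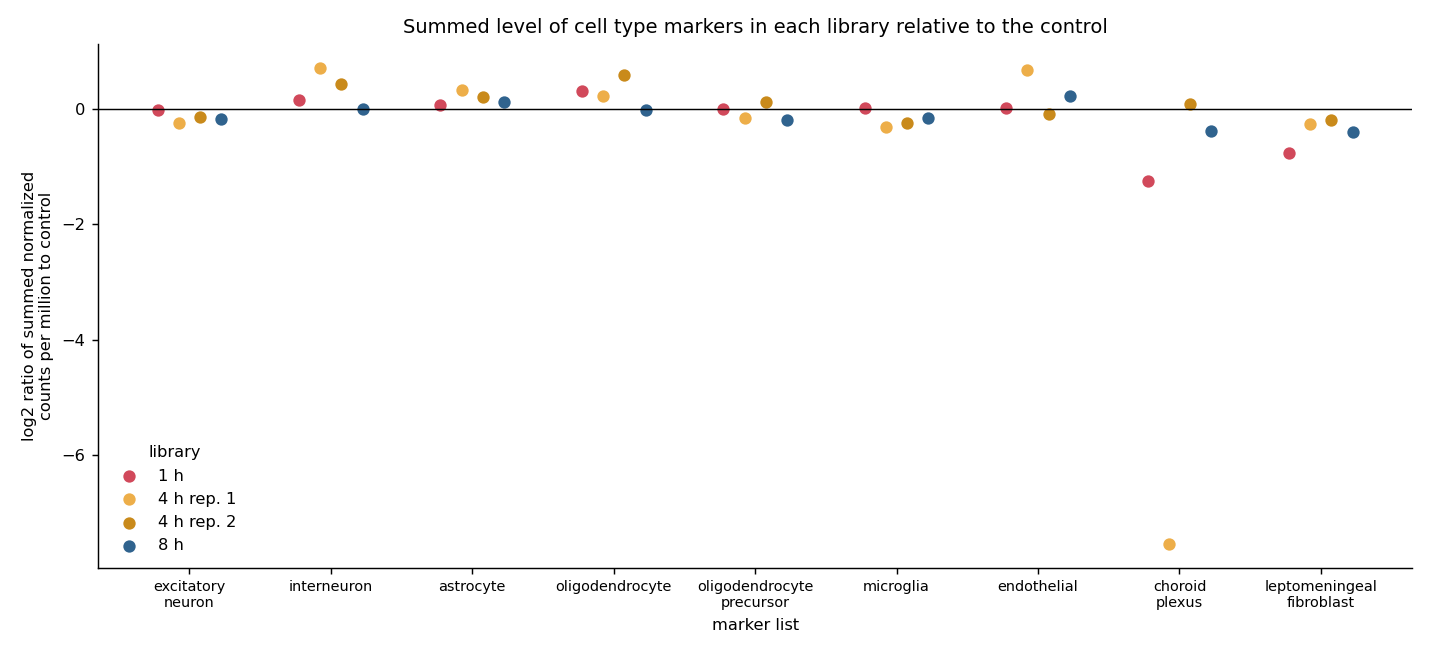
Log2 ratio to the control of the summed normalized CPM of 9 cell type marker lists, with 1 point for each library after kainic acid. The choroid plexus list in replicate 1 at 4 h is far below all other points, at 20.8 normalized CPM against 3896 in the control.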

How the data were processed

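The counts the authors deposited, of reads per gene, were used without change. By the submitters' processing notes, reads were aligned with STAR 2.5.1b to GRCm38.p4 and counted with HTSeq, from stranded total RNA libraries. The sources used here do not give HTSeq's version, its strand setting or the gene annotation. Lines for reads on no gene (24.7% to 33.1% of all reads), ambiguous reads (1.26% to 1.52%) and multiply aligned reads (9.67% to 11.6%) were left out.

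In R 4.3.3 with edgeR 4.0.16, filterByExpr left 19768 genes. With TMM factors, a quasi-likelihood model of 4 groups was fitted to 5 libraries (common dispersion 0.0565, 1 residual degree of freedom). Every time after kainic acid was compared to the control, with Benjamini-Hochberg adjustment over all tested genes, a threshold of 0.05 and a prior count of 2. An SE is the unshrunk log2 fold change divided by the root of F. Counts under 3 were set to 3 in the 2-fold measure. Gene positions came from GENCODE M21, which held 55144 of the 55385 identifiers. Plots were made in matplotlib 3.10.9 under Python 3.11.15. The analysis was tested on simulated data.

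Named are all 10 members, all activity reference genes, genes of other lists past the test or the 2-fold measure, the most abundant gene of each marker list, and the 5 nearest genes of Errfi1 and of Hbegf. Adam17, Mapk3, Grb2, Btc, Nrg3, Prox1, Gad2, Slc32a1, Gja1, P2ry12, Aif1, Tie1, Cdh5 and Col1a1 were named after their values were seen. The members and lists were chosen with earlier results of these data known. Alternatives were median-of-ratios (RLE) factors, library size alone, DESeq2 1.42.0, limma-voom (limma 3.58.1), no filter, at least 10 counts in every library, a prior count of 0.5, and leaving out each 4 h replicate.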

Additional observations from a re-analysis of the deposited data

Results flagged for a closer look

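Erbb3 was below the control in both libraries at 4 h and above it in the library of 8 h. The log2 difference between 8 h and 4 h was 1.18, with an adjusted p = 0.466 in the edgeR quasi-likelihood test (Benjamini-Hochberg) and an unadjusted p of 0.0071. Counting intervals excluded 1 in replicate 1 of 4 h and at 8 h, but not in replicate 2. A criterion that asked every library's interval to exclude 1 singled out no gene, and the one used here, at least 1 such interval per time, was set after the values were seen. The 8 h group had 1 library, so its spread between samples is not known.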

How the results depend on the processing

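The number of called genes depended on the setting, and the cause was not tested. At 1 h (0 called) it was 57 with library size alone, 49 with DESeq2, 285 with no filter and 1 with at least 10 counts in every library. At 4 h (1 called) it was 237, 233 and 1300 with the first 3 of these and 0 with at least 10 counts, RLE factors or limma-voom. At 8 h (0 called) it was 22, 32 and 279. Other scalings and filters for the 2-fold counts were added after seeing the data: the lower genes went from 304 to 170 at 1 h with at least 10 counts and from 191 to 294 at 4 h with library size alone. Without replicate 1 or 2 of 4 h, 783 or 1727 genes were higher (686 with both) and 399 or 920 lower (191 with both). Nrg1 and Areg joined Errfi1 and Hbegf without replicate 2. Of 204 values of members, 4 changed sign and 6 became called. Values without a replicate, and those of Areg with DESeq2, had no adjusted p. For Areg with DESeq2 only the sign was compared. Values without a replicate were compared by sign and by size, the latter against the SD of the log2 levels of the 4 h libraries. Erbb4 at 1 h went from 0.062 to -0.011 with library size alone. At 4 h, without replicate 1 and 2 in turn, the log2 fold change was -0.68 and 3.02 for Areg (2.11 with both), 0.033 and -0.20 for Tgfa (-0.080), and 0.095 and -0.43 for Erbb2 (-0.14). The value of -0.68 for Areg set 1 count against 3 in the control, both at or under the floor, so its sign carries no information. No paired analysis was possible, since only 4 h had replicates.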
